A study of Mus musculus with 3 samples.

Results

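Basal cells of the uninjured mouse corneal epithelium were picked out of 1 droplet RNA sequencing library by the transcripts they held, and 4111 of the 13270 barcodes in that library met the rule (31.0%). The whole series held 25971 barcodes in 3 libraries. The members were chosen by measured values. Each had at least 5000 UMIs (unique molecular identifiers, 1 per captured transcript), at most 20% of them mitochondrial, and at least 100 UMIs of Krt5 plus Krt12 per 10000. At least 3 of the 5 basal genes Trp63, Col17a1, Itga6, Itgb4 and Krt14 had at least 2 UMIs. Cells with more than 1 UMI of Gpha2, with a UMI of more than 3 of 7 surface genes (Psca, Muc4, Asprv1, Hopx, Nccrp1, Ly6g6c and Cysrt1) or of more than 2 of 7 cell cycle genes (Mki67, Top2a, Cdk1, Ube2c, Birc5, Cenpf and Ccnb1) were left out. Levels of these genes, and of every gene that follows them, are therefore a description of cells selected on their RNA, with no test.

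The 3 libraries came from cornea and limbus of wild-type (wt) mice, 1 mouse per group: uninjured, NM injured and treated with saline, and NM injured and treated with losartan. NM is nitrogen mustard, an alkylating agent, and losartan blocks a receptor of angiotensin II. Lens, retina, iris, trabecular tissue and most conjunctiva had been removed before digestion with liberase and then trypsin, so all 3 libraries share that handling. Strain, age, sex, time after injury and losartan dose are not given in the sources used here. With 1 library per group no difference has a replicate check, and every interval is a 95% interval that covers counting error only.

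The corneal epithelium is a layered sheet whose deepest cells, the basal cells, sit on a basement membrane. Hemidesmosomes, built on the integrin of Itga6 and Itgb4 with Col17a1, tie them to laminin in that membrane, and Trp63 is the transcription factor that keeps such cells in the basal state. Daughters leave the membrane, pass through the intermediate layer of wing cells and become flat surface cells that are shed. At the rim of the cornea, the limbus, stem cells supply the basal layer, and Gpha2 marks a part of the mouse limbus. Krt12, with Krt5 as its partner in the uninjured mouse, is the keratin that distinguishes corneal from other epithelium.

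The markers of the label are also genes of the rule, so their levels describe the selection and cannot check the label. Of the 4 named markers, Col17a1 had at least 2 UMIs in 4109 members (99.95%), Krt14 in 3140 (76.4%), Trp63 in 3115 (75.8%) and Itgb4 in 2926 (71.2%). Itga6 reached that level in 4069 (98.98%). The median member held 24 UMIs of Col17a1, 10 of Itga6, 8 of Krt14 and 3 each of Trp63 and Itgb4. All 5 basal genes passed in 1808 members, 4 in 1410 and 3 in 893. The rule fixed much of these shares in advance. A limit of the label is described under the subdivision of the members: 682 of them fall in 2 clusters that went against the name basal in most of the genes given there.

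Members had a median of 14037 UMIs (5001 to 55510) and 3809 detected genes, with a median of 1.43% mitochondrial UMIs. They were 48.7% (47.6 to 49.7) of the 8447 cells above the UMI, mitochondrial and Krt5 plus Krt12 limits. The UMI minimum removed 3980 barcodes, the largest number of any step. Barcode sequences shared with another library were few: 8 members shared theirs with the saline library and 6 with the losartan library. Markers of other cell types were summed as well. The 6 stromal markers summed to 132 CPM (a gene's UMIs over all UMIs of the cells, scaled to a common total) in members and 80478 CPM in stromal cells of the same library, and 5 cells held 65.3% of the members' stromal UMIs. The 6 immune markers summed to 3.61 CPM, the 4 melanocyte markers to 5.76 CPM with Mlana at 0, the 4 vascular markers to 1.87 CPM and the 4 Schwann cell markers to 2.79 CPM. The 4 mural cell markers summed to 112 CPM, of which Notch3, a receptor also found in epithelia, made up 107 CPM, and 66.8% of members held a UMI of the list. Langerhans and corneal endothelial markers summed to 0.0672 and 10.1 CPM. A score against simulated doublets marked a number of barcodes fixed beforehand, the 1409 of 13270 with the library's highest scores. Of the members 410 (9.97%) were among them, and results that turn on those cells are given without them.

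**Figure D1:**
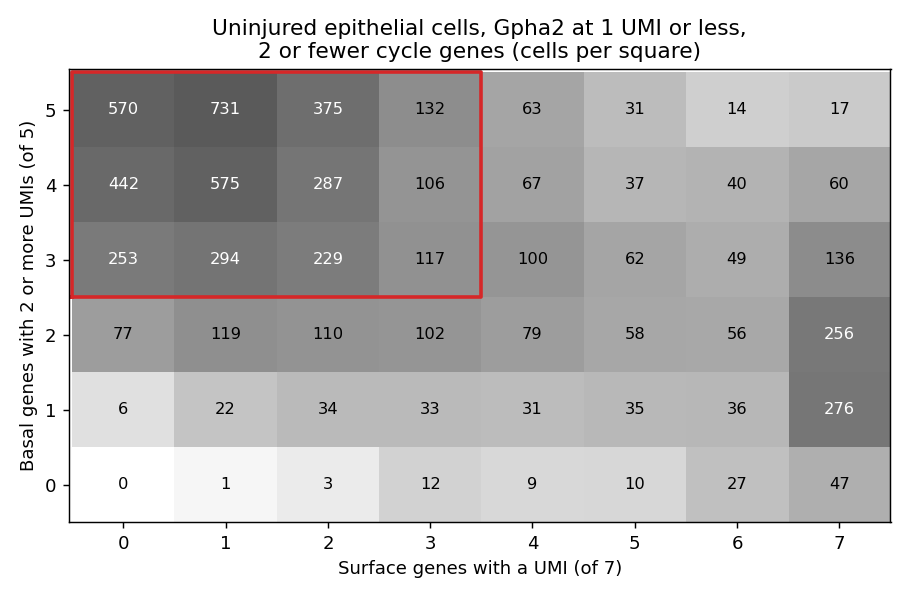
Uninjured cells above the UMI, mitochondrial and Krt5 plus Krt12 limits, by the number of basal genes with at least 2 UMIs (0 to 5) and of surface genes with a UMI (0 to 7). Numbers are cells and the red box encloses the gate from which the 4111 members were taken, after cells with Gpha2 and cell cycle genes had been left out.

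Some transcripts of the differentiated cornea ranked among the highest in the basal cells. Krt12, itself a gene of the rule, was first of all non-mitochondrial, non-ribosomal genes by UMIs, at 27892 CPM. Aldh3a1, the aldehyde dehydrogenase that is a corneal crystallin of the mouse, ranked 3 at 14066 CPM, and Tkt, the transketolase counted as another corneal crystallin, ranked 7 at 7712 CPM. These are shares of UMIs and were not scaled to gene length.

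The 15 highest genes also held Malat1, Tmsb4x, S100a6, Gm42418, Eef1a1, Tpt1, Krt5, Actg1, Mgarp, Lypd2, Slurp1 and Actb. Slurp1, a secreted protein that the corneal epithelium makes in quantity, was at 3949 CPM and Lypd2 of the same family at 4028 CPM. After each cell was thinned to 5000 UMIs, 99.5% of members held a UMI of Slurp1, against 44.6% of the 370 stromal cells, which should lack it. The stromal cells had a median of 11089.5 UMIs before thinning and Slurp1 at 117 CPM, so shares of cells are to be read against that level.

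Members were set beside 4 other gates of the same library. Intermediate cells (519) had fewer than 3 basal genes and at most 3 surface genes, and surface cells (920) had fewer than 3 basal genes and at least 4 surface genes. Gpha2 cells (707) met the basal rule but had at least 2 UMIs of Gpha2, and cycling cells (1004) met it but for at least 3 cycle genes. Within each gate the UMIs of all cells were added up. A gene was measured if it had 10 CPM in either gate, and was counted as higher or lower if the ratio of CPM + 5 was at least 1.5. Because the gates were cut on basal and surface genes, these counts describe the cut and test nothing.

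Against intermediate cells, 660 of 8263 measured genes were higher in basal cells (7.99%) and 534 lower (6.46%), with a median log2 ratio of 0.02. Stromal markers were higher in 5 of 5, with a median of 1.22 and sums of 132 and 42.8 CPM, and their part in the lists was not tested. Genes of attachment to the basement membrane were counted without the integrin and collagen genes of the rule. Of 31 genes of hemidesmosomes and basement membrane 26 were measured, 15 were higher and 0 lower, and their median was 0.74.

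Integrins came first. Itga2, a collagen-binding integrin chain (chr13:114833081-114932100, minus strand), was at 51.2 CPM in basal cells and 2.71 CPM in intermediate cells, a ratio of 18.9 (11.6 to 33.1). Itga3, a laminin-binding chain, was at 120 CPM against 18.4 CPM, a ratio of 6.50 (5.38 to 7.92). Itgb1, the partner chain of both, was at 261 CPM against 68.8 CPM, a ratio of 3.80 (3.44 to 4.199). All 3 were lower still in surface cells, at 0.640, 3.05 and 9.89 CPM. Itgav, which pairs with other chains, was at 65.6 CPM in basal, 68.3 CPM in intermediate and 66.9 CPM in surface cells and followed no such order.

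Matrix and linker genes followed the same order as Itga3. Lamb3, a chain of laminin-332, was at 38.5, 5.58 and 0.541 CPM in basal, intermediate and surface cells. Lama3, another chain of that laminin, was at 472, 161 and 45.9 CPM. Col7a1, the collagen of anchoring fibrils, was at 42.9, 5.41 and 0.640 CPM. Bcam, a laminin receptor, was at 114, 22.0 and 2.81 CPM, and the proteoglycan gene Agrn at 36.0, 5.75 and 1.57 CPM. Col4a1 and Col4a2, the chains of the common basement membrane collagen, were at 0.370 and 0.420 CPM in basal cells and at 87.6 and 113 CPM in stromal cells, so these chains were near 0 in the basal cells.

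The desmosome genes, which join epithelial cells to each other, ran the other way. Of 12 measured against intermediate cells, 0 were higher and 7 lower, and the median was −0.74. Dsp, the desmosomal plaque protein, was at 1762 CPM in basal and 2879 CPM in intermediate cells. Dsg1a, a desmosomal cadherin, was at 156 CPM against 422 CPM. Dsc3 was at 836 CPM in basal cells, 1057 CPM in intermediate cells and 399 CPM in surface cells, so not every member of the list peaked at the surface.

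Several signalling ligands were high in basal cells. Nrg1, the neuregulin that binds ERBB3 and ERBB4 (chr8:31814551-32884029, minus strand), was at 480.3 CPM in basal cells and 66.8 CPM in intermediate cells, a ratio of 7.19 (6.51 to 7.96). In surface cells it was at 7.38 CPM, a ratio of 65.1 (55.4 to 76.9). After thinning, 66.6% of members held a UMI of Nrg1, 19.5% of intermediate and 4.35% of surface cells. Among its possible receptors Erbb3 was at 67.4 CPM in basal, 94.4 CPM in intermediate and 110 CPM in surface cells, and Egfr, the receptor of the other ligands of the list, was at 327, 323 and 160 CPM. Of the ligands of EGFR, Areg was at 4.86, 29.8 and 124 CPM and Hbegf at 449.9, 396 and 1397 CPM, both highest in surface cells. Of 21 measured genes of EGF and other growth factors and receptors, 6 were higher and 4 lower in basal than in intermediate cells, and the median was 0.18.

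Notch is a receptor system in which ligands on one cell signal to receptors on the next. Jag2, a Notch ligand (chr12:112907819-112929776, minus strand), was at 78.8 CPM in basal cells and 6.77 CPM in intermediate cells, a ratio of 11.7 (8.54 to 16.3). Dll1, another ligand, was at 58.2 CPM against 8.63 CPM, a ratio of 6.74 (5.12 to 9.07). Jag1, by contrast, was at 73.4 CPM against 72.4 CPM. The receptors Notch1 and Notch3 were at 86.1 and 107 CPM in basal cells and at 93.5 and 171 CPM in intermediate cells. So the ligands Jag2 and Dll1 were low in intermediate cells and both receptors were not. Of 13 measured Notch genes 5 were higher and 1 lower, with a median of −0.00.

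Among Wnt genes the ligands also led. Wnt10a was at 66.7 CPM in basal cells and 8.79 CPM in intermediate cells, a ratio of 7.59 (5.77 to 10.2). Wnt3a was at 34.1 CPM against 3.38 CPM, a ratio of 10.1 (6.52 to 16.6). Wnt4 was the ligand with the most UMIs, at 444 CPM in basal, 277 CPM in intermediate and 294 CPM in surface cells. Of 16 measured Wnt genes 7 were higher and 1 lower, and the median was 0.31. The secreted inhibitors Sfrp1 and Dkk3 were also high in basal cells, at 317 and 233 CPM, against 24.7 and 8.22 CPM at the surface. Axin2 and Lef1, common readouts of canonical Wnt signalling, were at 0.689 and 0.235 CPM in basal cells and at 59.7 and 57.7 CPM in stromal cells.

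TGF-beta and BMP genes were higher in 8 of 14 and lower in 1, with a median of 0.72. The ligand Tgfb1 was at 41.8 CPM in basal and 10.2 CPM in intermediate cells, and its receptor Tgfbr2 at 42.7 CPM against 16.7 CPM. Tgfbi, a secreted matrix protein of the cornea induced by TGF-beta, was at 643 CPM against 457 CPM and 128 CPM at the surface. The list is mixed: Id1, a target of BMP signalling, was at 151 CPM against 280 CPM, while Id3 was at 233 CPM against 117 CPM.

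Cell cycle genes outside the rule were higher in 12 of 21 and lower in 2, with a median of 0.78. Ccnd2, the cyclin of the early G1 phase, was at 305 CPM in basal cells and 65.3 CPM in intermediate cells. Ccnd1, its paralog, was at 975 CPM against 542 CPM and 96.0 CPM at the surface. The inhibitor Cdkn1a was lower, at 385 CPM against 630.3 CPM and 848 CPM. Phgdh, the first enzyme of serine synthesis, was at 105 CPM against 10.7 CPM. The adhesion genes Cdh13 and Ctnnal1 and the TGF-beta inhibitor Ldlrad4 were the others among the 10 highest. Sparc and Igfbp2, genes that stromal cells also express, ranked there at log2 ratios of 2.46 and 2.45, which came to 1.97 and 2.06 without the highest doublet scores.

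Several keratins were lower in members than in intermediate and surface cells. Krt6a was at 365 CPM in basal cells, 1790.2 CPM in intermediate cells and 5858 CPM in surface cells. Krt6b was at 102, 513 and 7062 CPM. Krt13, counted here among the conjunctival markers, was at 37.2, 236 and 3492 CPM. The part of remaining conjunctiva or of limbus in these keratins was not tested. Krt15, often used as a marker of basal and limbal cells (chr11:100131758-100135928, minus strand), was lower too, at 237 CPM against 1639 CPM in intermediate cells, 6.93-fold lower (6.75 to 7.11), and 3675 CPM in surface cells. The shares of cells were closer: after thinning, 29.3% of members and 34.9% of intermediate cells held a UMI of Krt15. Intermediate cells with 0, 1 and 2 basal genes (16, 95 and 408 cells) had it at 7703, 3411 and 1094 CPM. Krt15 was the gene with the lowest log2 ratio of all that qualified to be named. Among the 19 measured genes of the list of basal and limbal progenitors it went against the list's name. That list had 9 genes higher and 2 lower, with a median of 0.34. Muc15, Cldn3, Ceacam1, Akr1b7, Eps8 and Ifitm1 made up the rest of the 10 lowest.

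Transcription factors followed several orders. Pax6, the master gene of eye development, was at 403 CPM in basal, 469 CPM in intermediate and 201 CPM in surface cells. Sox6 was at 51.9, 14.5 and 2.07 CPM, while Elf3, a factor of differentiating epithelium, was at 219, 493 and 1501 CPM. The 16 corneal identity genes had 2 higher and 4 lower, with a median of −0.34. Aldh3a1 was one of the higher ones, at 14066 CPM against 9287 CPM and 5819 CPM at the surface, and Krt12 was at 42773 and 43453 CPM in the upper gates against its 27892 CPM in basal cells.

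**Figure D2:**
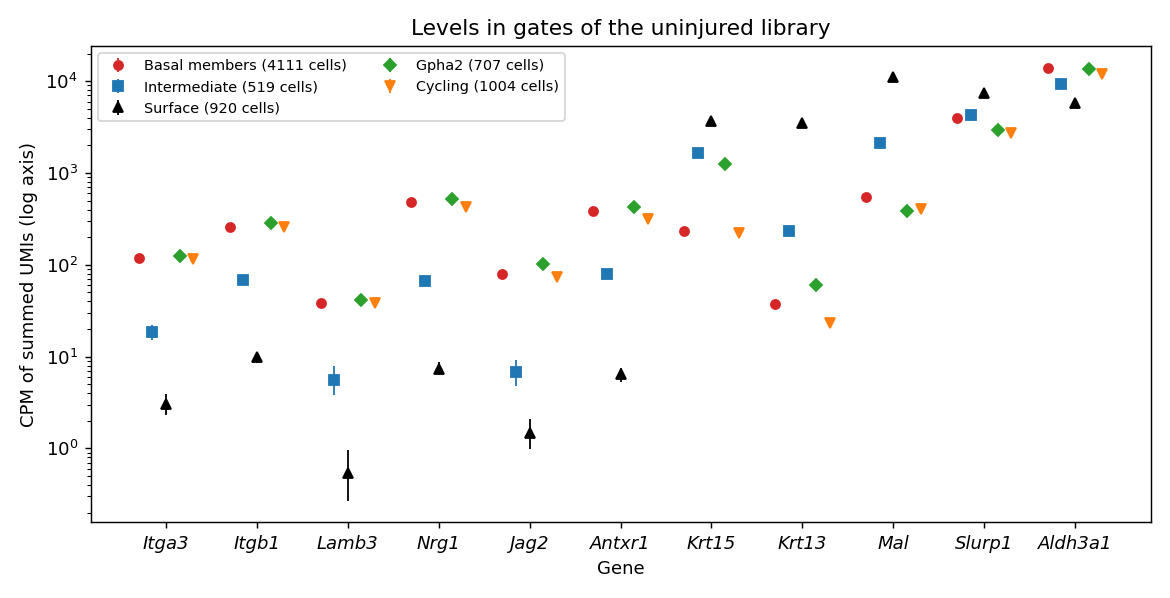
Levels (CPM, log axis) of 11 genes in the 5 uninjured gates, summed over the cells of each gate, with 95% Poisson intervals that cover counting error only. Itga3, Itgb1, Lamb3, Nrg1, Jag2 and Antxr1 were lower from basal to intermediate to surface cells, Krt15, Krt13, Mal and Slurp1 were higher, and Aldh3a1 was lower.

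Against surface cells, 3881 of 8332 measured genes were higher in basal cells (46.6%) and 1080 lower (13.0%). The median over all genes was 0.52, and with median-of-ratios scaling, which moves the centre by 0.43, the counts were 2236 and 1741. Hemidesmosome and basement membrane genes had a median of 2.31, with 22 of 26 higher and 0 lower. Surface and conjunctival genes had a median of −3.22, with 0 of 13 higher and 12 lower.

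Genes far above the general shift came from several classes. Antxr1, a receptor of collagen and of anthrax toxin, was at 382 CPM in basal and 6.40 CPM in surface cells, a ratio of 59.6 (50.2 to 71.4). Slc6a6, the taurine transporter, was at 1117 CPM against 29.0 CPM. Gja1, the gap junction protein connexin 43, was at 366 CPM against 14.6 CPM. Frmd4a, Cpe, Sema5a, Igfbp5, Lsamp, Dkk3 and Nrg1 were the rest of the 10 highest, with ratios between 22.2 (Lsamp) and 65.1 (Nrg1). At the other end Ifit1bl1, a gene of the interferon-induced Ifit group, was at 2.34 CPM against 796 CPM, 341-fold lower (288 to 406). Pglyrp1, an antibacterial protein that binds peptidoglycan, was at 24.9 CPM against 1879 CPM, and Serpinb11, Prss27, Enpp3, Gm9573, Cstdc5 and Ifitm1 were low as well.

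The limits of the gate were soft. Cells with 2 basal genes, just outside, had Nrg1 at 77.3 CPM, and members with 3, 4 and 5 had it at 228, 485 and 578 CPM. Itga3 was at 20.7 CPM outside and at 53.2, 121 and 146 CPM inside. Krt15 ran in the opposite order, from 1094 CPM outside to 511, 212 and 143 CPM inside, and Mal, a protein of apical membranes, from 1928 CPM to 1207, 478 and 321 CPM. At the surface limit, cells with 3 surface genes (inside) had Nrg1 at 295 CPM and those with 4 (outside) at 146 CPM. Cells with 1 UMI of Gpha2 had Krt15 at 300.4 CPM and those with 2 UMIs at 789 CPM. At the depth limit Nrg1 was at 775 CPM in the 184 members with 5000 to under 6000 UMIs and at 1198 CPM in the 291 cells with 4000 to under 5000 that met every other part of the rule.

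Gpha2 cells were close to the members. Of all genes, 28 of 8184 measured genes were higher in members (0.342%) and 98 lower (1.2%), with a median of −0.00, and over all settings tried the higher count ran from 11 to 49. Of the 27 hemidesmosome and basement membrane genes measured, 0 were higher and 1 lower, and Itga3 was at 120 and 124 CPM. The progenitor list had 0 of 20 genes higher and 7 lower, with a median of −0.27. Stromal markers were lower in members as well, in 4 of 5 with a median of −0.91 and sums of 132 and 266 CPM, and stromal cells held the progenitor list at 24754 CPM. The part of stromal RNA in that list was not tested. Krt15 was at 237 CPM in members and 1269 CPM in Gpha2 cells, 5.36-fold lower (5.24 to 5.49). Krt17, a keratin of stressed and hair follicle epithelium, was at 8.84 CPM against 42.2 CPM. Apoe, a lipid carrier that stromal cells also express, was at 53.7 CPM against 195 CPM, and Ifitm1, an interferon-induced membrane protein, at 33.6 CPM against 200 CPM. Kcnq5, Lgi2, Igfbp7, Tmem176b, Ly6a and Cmah were the other named genes on the low side. The highest ratio was Phactr1 at 21.5 CPM against 5.37 CPM, a ratio of 3.999 (3.10 to 5.25), with 59 members holding 50% of its UMIs.

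Cycling cells differed from members in cycle genes. Of 8427 measured genes 38 were higher in members (0.451%) and 526 lower (6.24%), and over all settings tried the higher count ran from 17 to 87. Stromal markers were higher in members in 5 of 5, with sums of 132 and 59.1 CPM. The cell cycle list had 1 of 23 genes higher and 13 lower, with a median of −0.81. Pclaf, a partner of PCNA in replication, was at 8.02 CPM in members against 361 CPM, and Anln, Cdc20, Nusap1 and Tpx2, genes of mitosis and cytokinesis, were between 54.4-fold (Tpx2) and 112-fold (Nusap1) lower.

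On the higher side, Ccnd2 was at 305 CPM against 144 CPM, a ratio of 2.12 (2.04 to 2.21). Mxd4, a repressor of the MYC network, was at 43.6 CPM against 18.9 CPM. Aldoa, a glycolytic aldolase, was at 156 CPM against 71.9 CPM. Dcn, a proteoglycan of stroma, also ranked there at a log2 ratio of 0.94, which came to 0.19 without the highest doublet scores. Attachment genes were much alike, with Itga3 at 120 and 115 CPM and Lama3 at 472 and 464 CPM.

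Within the members, immediate early genes varied together. These genes are transcribed soon after a stimulus, without new protein synthesis. The 18 genes of the list, among them Fos, Jun, Junb, Btg2 and Zfp36, took a median of 0.8% of a member's 5000 thinned UMIs, with the 10th percentile at 0.12% and the 90th at 2.28%. The distribution had 2 humps: 1853 members (45.1%) were under 0.5%, 343 (8.34%) between 0.5% and 1%, and 1915 (46.6%) at 1% or more. The highest member reached 4.28%.

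The promoters of 4 genes that varied together from cell to cell are shown so that their letters can be compared. They are the 250 bases upstream of the RefSeq start on GRCm38.p6, read 5′ to 3′ in the sense of the gene, and capitals mark TGACGT or its reverse complement ACGTCA, the core of the element bound by CREB and ATF factors. Fos, the AP-1 subunit, is at chr12:85473640-85473889 on the plus strand. Jun, its partner, is at chr4:95052223-95052472 on the minus strand. Atf3, a stress-induced factor of the ATF family, is at chr1:191183334-191183583 on the minus strand, and Btg2, an antiproliferative gene, at chr1:134079156-134079405 on the minus strand.
Fos: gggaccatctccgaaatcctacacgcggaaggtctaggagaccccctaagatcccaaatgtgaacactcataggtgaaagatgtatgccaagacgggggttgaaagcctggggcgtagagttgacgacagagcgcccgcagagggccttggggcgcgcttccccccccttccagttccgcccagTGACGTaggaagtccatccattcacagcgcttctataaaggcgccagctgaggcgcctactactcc
Jun: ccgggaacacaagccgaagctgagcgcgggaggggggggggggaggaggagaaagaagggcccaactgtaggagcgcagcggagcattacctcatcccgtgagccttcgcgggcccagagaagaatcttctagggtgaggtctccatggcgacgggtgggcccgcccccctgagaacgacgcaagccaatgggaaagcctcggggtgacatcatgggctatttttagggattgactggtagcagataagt
Atf3: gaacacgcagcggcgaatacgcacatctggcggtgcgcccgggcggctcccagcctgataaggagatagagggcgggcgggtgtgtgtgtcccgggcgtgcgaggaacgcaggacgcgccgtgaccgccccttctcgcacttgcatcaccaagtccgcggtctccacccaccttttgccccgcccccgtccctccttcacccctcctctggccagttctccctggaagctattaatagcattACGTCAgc
Btg2: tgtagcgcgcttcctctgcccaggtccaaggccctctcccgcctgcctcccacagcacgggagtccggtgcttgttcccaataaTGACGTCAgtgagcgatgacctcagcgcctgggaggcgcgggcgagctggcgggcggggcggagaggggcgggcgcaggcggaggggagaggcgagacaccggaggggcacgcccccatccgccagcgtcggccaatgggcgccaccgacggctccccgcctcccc
Fos held 1 match, 66 bases upstream of the start, and Atf3 held 1, 8 bases upstream. Btg2 held 2 overlapping matches that form TGACGTCA, 166 and 164 bases upstream, and Jun held 0. Distances are from the RefSeq start: the GENCODE M21 model of Btg2, on the minus strand, starts at position 134079120, downstream of the RefSeq start, and 7 bases of the Atf3 window lie in a GENCODE exon. None of the 4 held TGANTCA, the AP-1 element. Both strands were searched, and 6.47% of 32851 RefSeq promoters of that length held TGACGT and 6.75% held TGANTCA. A match is a description of letters and no evidence of binding.

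Levels of these 4 genes differed widely along the share. Fos was at 255 CPM in members under 0.5% and at 3532 CPM in members at 1% or more. Jun was at 211 and 2737 CPM, and Btg2 at 58.8 and 1199 CPM. The list chose these 3, so their difference is given by the grouping. Atf3, which was not in the list, was at 53.8 and 2533 CPM. Across the 4111 thinned members Spearman's rho was 0.80 for Fos with Jun and 0.76 for Fos with Atf3. These cells share 1 library and a fixed depth, and rho describes them only.

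Genes of the rule and of adhesion differed along the same axis, in both directions. Krt14 was at 480 CPM under 0.5% and at 1980 CPM at 1% or more, and Itga6 at 682 and 1108 CPM. Trp63 was at 421 CPM under 0.5% and at 149 CPM at 1% or more, so 2 markers of the basal state ran opposite ways. Krt16, a keratin of activated epithelium, was at 17.0 and 551 CPM. Cdkn1a was at 95.03 and 608 CPM and the tight junction gene Cldn4 at 67.4 and 914 CPM. Txnip, an inhibitor of thioredoxin, was at 306 and 72.8 CPM, and Mir205hg, the host of a microRNA of epithelia, at 139 and 24.3 CPM. Other genes hardly differed: Itga3 was at 120 and 121 CPM, Itgb1 at 270.4 and 255 CPM, Aldh3a1 at 14239 and 13779 CPM.

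Depth and mitochondrial share differed along the axis. Members under 0.5% had a median of 10961 UMIs and 1.98% mitochondrial UMIs, and members at 1% or more had 16315 UMIs and 1.15%. In the 916 members with 5000 to under 10000 UMIs Atf3 was at 297 CPM and Trp63 at 486 CPM, and in the 1215 with 15000 to under 20000 UMIs at 2162 and 189 CPM. The part of depth in these differences was not tested. The same pair of humps was found outside the members: 45.7% of Gpha2 cells, 39.5% of cycling cells, 56.6% of intermediate cells, 36.5% of surface cells and 38.9% of stromal cells were under 0.5%.

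**Figure D3:**
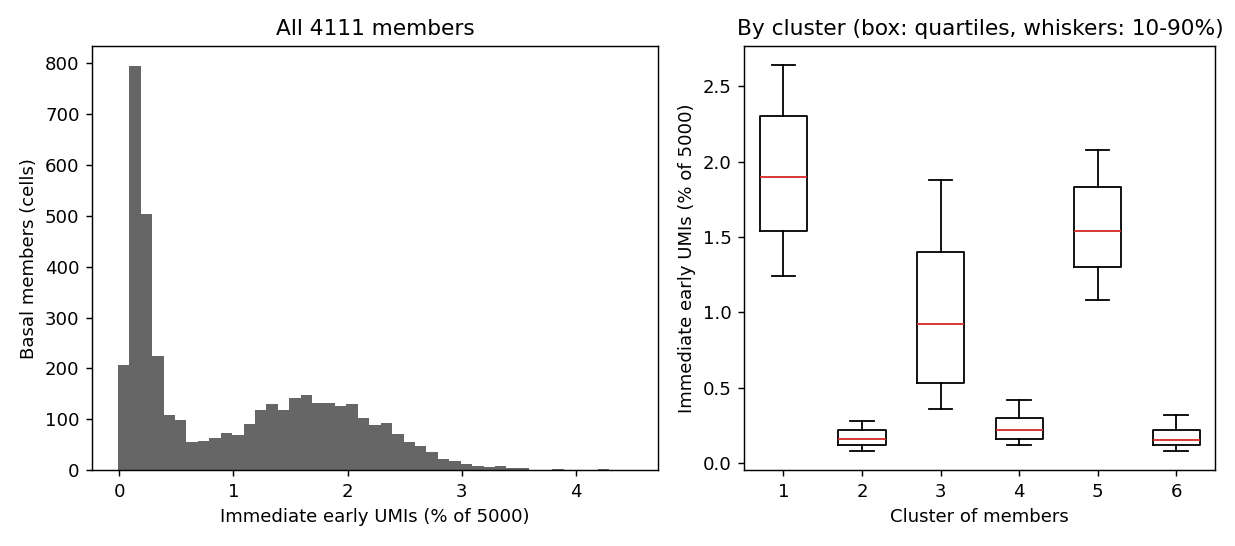
Left, number of members by the share of their 5000 thinned UMIs in 18 immediate early genes (%), with 45.1% of members under 0.5% and 46.6% at 1% or more. Right, the same share by cluster of members (line: median; box: quartiles; whiskers: 10th to 90th percentile), from 0.15% in cluster 6 to 1.9% in cluster 1.

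Clustering of the members alone gave 6 clusters, which are described by their leading genes. Cluster 1 (1428 members, 34.7%) had Plaur, Cldn1 and Fosl1 among its leading genes and a median immediate early share of 1.9%. Cluster 2 (1026 members) had Mir205hg first and Tsc22d3 and Txnip among its 10 leading genes, with Trp63 at 493 CPM and a median immediate early share of 0.16%. The largest clusters thus lay at the ends of the immediate early axis. They also differed in depth, with medians of 16501.5 and 9778 UMIs.

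Cluster 3 (787, 19.1%) was led by Slpi and Dcn, with Igfbp2 and Sparc also among its 10 leading genes, and 15.5% of its cells had high doublet scores. Cluster 6 (188, 4.57%) was led by Hells, Dtl, Uhrf1, Mms22l and Mcm3, genes of DNA replication, with Pcna at 244 CPM, although cells with more than 2 of the 7 cycle genes of the rule had been left out. These 7 genes are mostly of late S, G2 and mitosis.

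Clusters 4 and 5 went against the name basal in most of the genes given here. Cluster 4 (487, 11.8%) was led by Muc15, Lgi2 and Cmah, with Krt15 at 749.7 CPM and Mal at 1562 CPM, and cluster 5 (195, 4.74%) by Sprr1a, Krt6a, Krt6b and Cldn3, with Krt6a at 2051 CPM. Their cells passed the rule with a mean of 3.52 and 3.54 of the 5 basal genes. In cluster 4 Trp63 was higher than in the other members, at 324 CPM against 251 CPM. Col17a1, at 1139 CPM against 1873 CPM, and Itga6, Itgb4 and Krt14 were lower there. In cluster 5 all 5 were lower than in the other members. Nrg1 was at 100.5 and 87.4 CPM there and Itga3 at 28.6 and 28.7 CPM, nearer to the intermediate gate (66.8 and 18.4 CPM) than to all members (480.3 and 120 CPM). Krt15, Lgi2 and Cmah, among the leading genes of cluster 4, were also higher in Gpha2 cells than in members, while Muc15 was lower in Gpha2 cells. Whether cluster 4 holds limbal cells was not tested. High doublet scores took 28.7% of cluster 5 and 8.62% of cluster 4. Every comparison was repeated without both clusters.

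The spread of single genes over the members was set beside counting noise. The Fano factor, the variance of a gene's thinned UMIs over their mean, is 1 for counting noise alone. Its median over 3796 genes was 1.10, and 180 genes were at 2 or more. Of the 15 highest, Krt15 had a Fano factor of 25.04, with a median of 0 UMIs, a highest cell of 128 and 76 of the 4111 members holding 50% of its UMIs. Krt16 was at 11.4 with a highest cell of 49, and Krt6a at 8.65 with a highest cell of 38. Fos (10.96), Atf3 (9.85) and Jun (8.60) were in the same 15.

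The remaining genes of the 15 were of several kinds. Dcn led at 72.8, with 5 cells holding 50% of its UMIs, and came to 1.13 without the highest doublet scores. Igfbp2 and Sparc came from 15.2 and 12.7 to 1.72 and 1.32. Stromal cells had Igfbp2 at 16089 CPM. Malat1, a nuclear RNA, was at 39.5 and Gm42418, which overlaps ribosomal RNA sequence, at 34.7. Gsta4, a glutathione transferase, and Calml3, a calmodulin-like protein of epithelia, were at 10.1 and 10.0, and Ifi202b and H3f3b completed the 15.

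The same gate was applied to the injured libraries. Of 120 epithelial cells with saline 23 met it, and of 786 with losartan 292 did. These cells were deeper, with medians of 36262 and 34048 UMIs. Minimum limits in UMIs are easier to reach at such depth, and upper limits on surface, Gpha2 and cycle genes are easier to exceed. Epithelial cells with at least 3 basal genes but at least 4 surface genes, which the gate leaves out, were 30 of 120 with saline. They were 193 of 786 with losartan and 676 of 8447 in the uninjured library. The part of depth in these numbers, and whether the gate holds the same layer after injury, was not tested. Both injured gates are compared with the same 4111 uninjured members, and so share them. The immune marker list summed to 27.2 CPM in the saline and 41.9 CPM in the losartan gate, against 3.61 CPM in members. The stromal list summed to 9.89 and 80.2 CPM, against 132 CPM in members. It was lower in 5 of 5 measured markers with saline (median −2.11) and in 2 of 5 with losartan (median −0.47), and higher in 4 of 4 with losartan against saline (median 1.88). The part of these lists in the results was not tested.

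The genes of the gate itself differed between libraries. Krt14 was at 1337 CPM in uninjured members, 17179 CPM with saline and 10552 CPM with losartan. Trp63 was at 259, 151 and 148 CPM. Col17a1 was at 1790, 765 and 1478 CPM. So Krt14 was higher in both injured gates, Trp63 lower in both, and Col17a1 lower mainly with saline. Itgb4 was at 233, 146 and 246 CPM and Krt12 at 27892, 8001 and 18852 CPM.

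With saline, 1847 of 8663 measured genes were higher than in uninjured members (21.3%) and 2061 lower (23.8%), with a median of −0.02. With losartan, 1225 of 8483 were higher (14.4%) and 2143 lower (25.3%), with a median of −0.15. Between the injured gates, 647 of 7986 genes were higher with losartan (8.1%) and 1342 lower (16.8%), with a median of −0.13. With every cell thinned to 5000 UMIs the last counts were 1568 and 2434. List medians below are to be read against these shifts.

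Corneal identity genes were low in both injured gates. With saline 4 of 16 were higher and 10 lower, with a median of −2.38, and with losartan 3 were higher and 11 lower, with a median of −1.63. Aldh3a1 was at 14066 CPM in members, 224 CPM with saline, 62.9-fold lower (54.4 to 73.2), and 1908 CPM with losartan. Slurp1 was at 3949 CPM in members, 1.24 CPM with saline (1 UMI), 3196-fold lower (574 to 126222), and 212 CPM with losartan, 18.6-fold lower (17.8 to 19.4). Lypd2 was at 4028, 1.24 (again 1 UMI) and 28.0 CPM. Between the injured gates this list had 8 of 15 genes higher with losartan and 1 lower, with a median of 0.93. Adh7, an alcohol dehydrogenase that acts on retinol, was at 1537 CPM in members, 2.47 CPM with saline and 18.3 CPM with losartan.

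Keratins and envelope genes of wounded epithelium were high. With saline 17 of 18 were higher and 0 lower, with a median of 3.10, and with losartan 18 of 19 and 0, with a median of 2.79. Sprr1b, a cornified envelope precursor, was at 0.0504 CPM in members (3 UMIs among 4111 cells), 708 CPM with saline and 770.0 CPM with losartan. Krt17 was at 8.84, 1409 and 327 CPM. Krt16 was at 317, 10497 and 4281 CPM. Few saline cells decide these values: 3 of the 23 held 50% of the Sprr1b UMIs and 2 held 50% of the Krt17 UMIs.

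Ppbp, a chemokine better known from platelets, was at 0.218 CPM in members, 3137 CPM with saline and 400.2 CPM with losartan, with 4 saline cells and 16 losartan cells holding 50% of the UMIs. Arg1, the arginase, was at 8.34, 1595 and 561 CPM. Fabp5, a fatty acid binding protein of keratinocytes, was at 282 CPM in members and 9964 CPM with losartan. With saline it had 5975 of the gate's 809305 UMIs and was found in all 23 cells, so it was high there too. Mmp10, a matrix metalloproteinase, was at 0.118 CPM in members, 0 UMIs with saline and 162 CPM with losartan. That was 43.8-fold higher with losartan than a floor of 3 counts over the saline gate, and the interval of the ratio began at 35.6. Among the lowest, Piezo2, a mechanically gated channel, was at 218 CPM in members, 0 UMIs with saline and 6.70 CPM with losartan. The same floor with saline was 58.7-fold below members, and the interval of the ratio of saline to members ended at 0.0209.

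Targets of p53, the factor activated by DNA damage, were higher in both. With saline 12 of 14 were higher and 1 lower, with a median of 1.61, and with losartan 14 of 15 and 1, with a median of 1.47. Cdkn1a was at 385, 790 and 1051 CPM in uninjured, saline and losartan gates. Mdm2, the ubiquitin ligase of p53, was at 124, 489 and 485 CPM. Glycolysis and hypoxia genes were higher in 14 of 19 with saline and in 12 of 17 with losartan, with medians of 1.84 and 1.56; Aldoa was at 156, 723 and 610.5 CPM.

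Attachment genes were lower more often than higher. With saline 2 of 26 were higher and 17 lower, with a median of −0.88, and with losartan 2 and 12, with a median of −0.48. Itga3 was at 120 CPM in members, 24.7 CPM with saline and 64.4 CPM with losartan. Frem2, of the complex that joins epithelium to basement membrane, was at 98.4, 1.24 and 1.62 CPM. Lamb3 was an exception at 38.5, 54.4 and 77.0 CPM. Jag2 was at 78.8, 4.94 and 12.6 CPM, and Wnt3a at 34.1 CPM in members, 0 UMIs with saline and 2.13 CPM with losartan.

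Surface and conjunctival genes were higher in 13 of 15 with saline and in 10 of 12 with losartan, with medians of 3.31 and 1.71, beside a gate that limits its own 7 surface genes. Krt19, a keratin of conjunctiva and other simple or mixed epithelia, was at 1.19, 411 and 63.6 CPM, with 2 of the 23 saline cells holding 50% of the UMIs. Between the injured gates 1 of 15 was higher with losartan and 10 lower, with a median of −1.18. Krt8 was at 3.25 CPM with losartan and 70.4 CPM with saline, where 1 cell held 50% of its UMIs, and its log2 ratio came from −3.19 to −0.11 when 4 basal genes were asked for.

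Immediate early genes were lower in both injured gates. With saline 1 of 18 was higher and 13 lower, with a median of −1.42, and with losartan 1 and 14, with a median of −0.93. Fos was at 2188, 581 and 564 CPM and Atf3 at 1464, 199 and 424 CPM. Cells with a share of 1% or more were 46.6% of the uninjured, 13.0% of the saline (3 of 23) and 7.53% of the losartan gate. Those between 0.5% and 1% were 8.34%, 17.4% and 48.3%, and those under 0.5% were 45.1%, 69.6% and 44.2%. The losartan gate thus had more cells in the middle and about the same share of low cells as the uninjured gate. When cells of all 3 gates were limited to shares under 0.5%, which selects on the list itself, the medians were 0.57 and 0.81. The progenitor list, which holds Atf3, went from −1.25 and −0.62 to 0.02 and 0.36 at the same time.

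**Figure D4:**
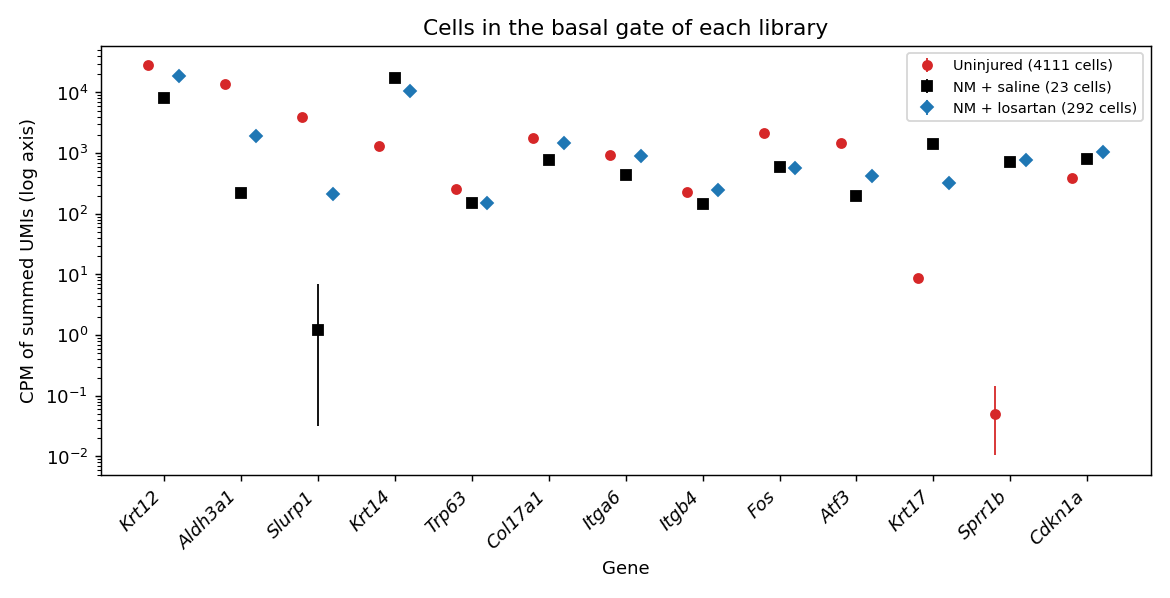
Levels (CPM, log axis) of 13 genes in the basal gate of the 3 libraries (4111 uninjured, 23 saline and 292 losartan cells), with 95% Poisson intervals that cover counting error only. Aldh3a1 and Slurp1 were lower and Krt14, Krt17, Sprr1b and Cdkn1a higher in both injured gates, and Col17a1 with losartan (1478 CPM) lay between saline (765 CPM) and uninjured (1790 CPM).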

How the data were processed

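The deposited values are counts of UMIs per gene and barcode, 1 matrix per library, which the authors made with Cell Ranger (version 8.0.0, per the file headers). The submitters' processing notes give GRCm38 as the genome build. Annotation release, intron counting, kit and any doublet removal are not given in the sources used here. Each matrix had 32285 genes, and the lowest barcode total was 500 UMIs. Library totals were 177003042 (uninjured), 83155441 (saline) and 92753670 (losartan) UMIs.

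The members, the 20 gene lists and the settings were chosen with earlier results of these data known. Counts were summed per gate and scaled to CPM. Intervals of 95% are conditional binomial for ratios, Poisson for CPM and Clopper-Pearson for shares, all exact. Log2 ratios used CPM + 5, over genes at 10 CPM or more in either gate. Named genes were the 10 highest and 10 lowest ratios per comparison among genes that reached 20 CPM in the higher gate and were seen in at least 5% of its thinned cells, genes of the rule left out. The 15 genes with most UMIs, the 15 highest Fano factors and list members at 10 CPM or more in members were also open to naming. Members were clustered on 1000 variable genes and 15 components (20 neighbours, Leiden, resolution 0.5). Doublet scores used 2 simulated doublets per cell, and the highest 0.8% per 1000 barcodes were marked. Scripts were tested on simulated data. Positions are from GENCODE M21 and promoters from RefSeq, which listed all 4 genes by symbol. Python 3.11.15, numpy 2.4.6, scipy 1.17.1, pandas 2.3.3, scikit-learn 1.9.0 and leidenalg 0.10.2 were used.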

Additional observations from a re-analysis of the deposited data

How the results depend on the processing

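No paired analysis was possible because each group has 1 library. Of 1680 values of the 140 named results under alternative settings, 1261 stayed within the counting interval of the value reported, 416 left it and 3 reversed, and 12 of the 140 came under 1.5-fold in 21 values. Of 1714 list medians, 1499 moved by less than 0.2 on the log2 scale, 210 by more and 5 reversed. With clusters 4 and 5 left out, an alternative chosen after seeing the data, Muc15 against Gpha2 cells went to −0.46, and Krt6b and Cyp4a12b against cycling cells to −0.20 and −0.13. A 50 CPM minimum turned the growth factor list against surface cells from 0.82 to −0.26. Shares under 0.5% of all UMIs, without thinning, were also chosen after seeing the data. With them immediate early medians went to 0.57 (saline) and 0.81 (losartan), and progenitor medians to 0.021 and 0.36.

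Counts of higher and lower genes moved by over 1.5 times with the 50 CPM minimum, which tests fewer genes: 270 and 297 (intermediate), 1560 and 710 (surface), 11 and 32 (Gpha2), 17 and 217 (cycling), 1023 and 888 (saline), 675 and 847 (losartan), 244 and 530 (losartan against saline). Under other settings, higher genes against Gpha2 cells came to 49 (pseudocount 1), 47 (mean per cell), 49 (thinned), 13 (4 basal genes), 12 (clusters left out) and 45 (shares under 0.5%). Against cycling cells they were 87, 71 (thinned), 66 (doublet scores) and 63 (shares under 0.5%). Losartan against saline gave 1568 and 2434 when thinned and 1020 higher with no minimum. Median-of-ratios scaling gave 2236 and 1741 against surface cells, and thinning to 10000 UMIs gave 323 variable genes. The causes were not tested beyond the fewer genes tested. The saline gate is limited by its 23 cells, with 809305 UMIs in all.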
